A study of Mus musculus with 11 samples.

Results

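Transcripts of 10 inflammasome and interleukin 1 (IL-1) family genes, chosen by name from the 19058 genes of the deposited table, were followed in lacrimal glands of male NOD mice, the nonobese diabetic strain that develops spontaneous lacrimal gland inflammation. The genes were *Il1b*, *Il18*, *Il1rn*, *Il18bp*, *Nlrp3*, *Aim2*, *Pycard*, *Casp1*, *Casp4* and *Gsdmd*, each found as 1 row. Whole-gland RNA libraries, 1 per mouse, were analysed from 3 wild-type (WT) mice, 5 *Tlr7* KO mice and 3 *Ifnar1* KO mice. Per the methods of the study, a further *Ifnar1* KO mouse had been removed because its expression profile grouped with WT mice and its gland was as inflamed as theirs. It was not analysed here, so the *Ifnar1* KO group was selected on expression and inflammation, and each decrease and SD given for it holds for the mice that were kept. The *Tlr7* KO mice carried a CRISPR/Cas9 allele that lacks a pair of bases in *Tlr7*, the endosomal sensor of single-stranded RNA, and the *Ifnar1* KO mice were homozygous for the em16 allele of *Ifnar1*, a chain of the type I interferon (IFN) receptor. The WT and *Tlr7* KO mice were 20 to 22 weeks old, and for the *Ifnar1* KO mice no age is given beyond the wider range that the methods state for all mice of the study. Each edited line descends from a single allele, every cell of the animal carries it, and all groups share the NOD background.

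An inflammasome is a protein complex that turns danger signals into cytokine release. A sensor such as NLRP3 or AIM2 recruits the adaptor ASC, the product of *Pycard*, which in turn recruits and activates caspase-1. Caspase-1 cuts the inactive precursors of IL-1β and IL-18, and it cuts gasdermin D, whose fragment forms membrane pores through which the cytokines leave. *Casp4* encodes the mouse caspase also called caspase-11, which senses bacterial lipopolysaccharide in the cytosol and cuts gasdermin D directly. *Il1rn* and *Il18bp* encode the natural antagonists, which block the IL-1 receptor and bind free IL-18. Cutting of the proteins is not seen by RNA sequencing, which measures transcripts alone.

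The promoters of *Il1b*, *Aim2* and *Pycard* are shown because they belong to a cytokine, to the member with the largest estimated decrease in *Tlr7* KO glands, and to the adaptor, whose level differed least. They are the 250 bases before the annotated start from RefSeq on GRCm38.p6, written 5′ to 3′ on the strand of the gene, with letters that match a searched motif in capitals. *Il1b* lies at chr2:129371140-129371389 on the minus strand, *Aim2* at chr1:173420354-173420603 on the plus strand and *Pycard* at chr7:127993868-127994117 on the minus strand.
Il1b: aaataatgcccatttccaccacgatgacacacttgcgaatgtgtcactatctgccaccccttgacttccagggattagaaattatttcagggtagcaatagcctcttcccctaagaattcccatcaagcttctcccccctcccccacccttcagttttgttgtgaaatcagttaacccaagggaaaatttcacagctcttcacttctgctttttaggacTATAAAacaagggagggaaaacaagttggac
Aim2: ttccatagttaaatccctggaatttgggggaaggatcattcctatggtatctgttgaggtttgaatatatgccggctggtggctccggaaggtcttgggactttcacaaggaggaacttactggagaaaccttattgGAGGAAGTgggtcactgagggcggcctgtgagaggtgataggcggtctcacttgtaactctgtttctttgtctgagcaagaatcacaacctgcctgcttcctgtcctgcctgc
Pycard: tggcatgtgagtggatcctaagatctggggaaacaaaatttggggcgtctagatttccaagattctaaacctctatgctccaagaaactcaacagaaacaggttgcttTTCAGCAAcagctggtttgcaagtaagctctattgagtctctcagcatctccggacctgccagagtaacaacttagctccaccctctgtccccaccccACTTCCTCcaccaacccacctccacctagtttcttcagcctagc
The capitals mark TATAAA, the TATA box letters, at base -31 of *Il1b*. They mark GAGGAAGT, letters of the myeloid and B cell factor PU.1, at base -113 of *Aim2* and at base -44 of *Pycard*, and in *Pycard* also TTGCNNAA, letters of C/EBP factors, at base -142. Promoters from 250 bases before to 50 bases after the start were matched by symbol for 9 of the 10 genes, all but *Gsdmd*, and gave 13 starts. Both strands were searched first for 3 motifs, the core of the IFN-stimulated response element (TTTC, a pair of any bases and TTTC), TTCNNNGAA (the GAS element bound by STAT proteins) and the NF-κB letters (GGGA, a pair of any bases and TTCC), and 0 of the 13 promoters held any of them. Among all 32851 RefSeq promoters of this length, these letters were held by 3.44%, 8.3% and 1.47%. The PU.1, C/EBP and TATA letters, held by 3.2%, 10.8% and 13.6% of all promoters, and TGANTCA for AP-1, held by 7.81%, were added afterwards. AP-1 letters were at base -141 of the first *Il1rn* start. A match is a description of the letters, and the absence of one says only that these letters are not in this window. The NF-κB letters searched are a narrow form. Both *Casp4* windows, which overlap, hold GGGATTTCCC, which that form does not cover.

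Between 20512315 and 28814250 estimated counts per library were assigned to genes. Levels are given as CPM, counts scaled to a common library size, after adjustment by the trimmed mean of M values (TMM). Changes are log2 fold changes with their standard error (SE), and a gene was called at an adjusted p under 0.05 (edgeR's quasi-likelihood test, Benjamini-Hochberg adjustment over all genes tested). *Tlr7* transcripts were at 1.52 to 2.94 CPM in WT and 0.494 to 0.949 CPM in *Tlr7* KO glands, and *Ifnar1* transcripts at 10.5 to 15.1 CPM in WT and 8.34 to 9.63 CPM in *Ifnar1* KO glands. Each was also low in the other KO group, *Tlr7* at 0.251 to 0.822 CPM in *Ifnar1* KO and *Ifnar1* at 8.34 to 11.2 CPM in *Tlr7* KO glands. Counts over a whole gene do not show a small deletion, so these levels do not check the labels. The 8 gland epithelial markers were all detected. WT 2 stood apart from the other WT mice, with summed B cell markers of 80.4 CPM against 244.7 and 280.1 CPM, and results are therefore also given without it. It was picked out from these same data, and the authors dropped no WT mouse. Since WT 2 was the lowest WT mouse for 9 of the 10 genes, leaving it out raises their WT level. Calls gained that way are no separate support for a decrease. In bulk RNA, fewer cells of a type and less RNA per cell cannot be told apart.

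In *Tlr7* KO glands 5 of the 10 genes were called lower than in WT, namely *Il18*, *Aim2*, *Casp1*, *Casp4* and *Gsdmd*, while 17.4% of all 13937 genes tested were called lower. Their estimates ranged from a 2.58-fold decrease of *Il18* to a 4.37-fold decrease of *Aim2*. Across the 10 genes the log2 fold change had a median of -1.20, compared with -0.04 over all genes. In *Ifnar1* KO glands 7 of the 10 genes were called lower than in WT, the same 5 with *Il1rn* and *Il18bp* added, while 12.4% of all genes tested were called lower. The largest decrease there was 7.45-fold, for *Casp4*, and the median log2 fold change was -2.22 against -0.02 over all genes. *Il1b*, *Nlrp3* and *Pycard* were called in neither comparison. The 10 genes were chosen with earlier results of these data known, so their shares and medians beside those of all genes are a description. Both comparisons use the same 3 WT mice, so they are not independent of each other, and the gene filter rests on WT counts. All 10 genes passed it, but *Il18* and *Nlrp3* had summed counts under its minimum of 30 in each KO group, and *Il1rn* had 26 in *Ifnar1* KO. These genes passed only through the WT mice, so that their passing favours a lower level in those KO mice. With no gene filter 6 genes were called lower in *Ifnar1* KO, against 8.69% of all genes, since *Il18* was not (adjusted p = 0.051).

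**Figure D1:**
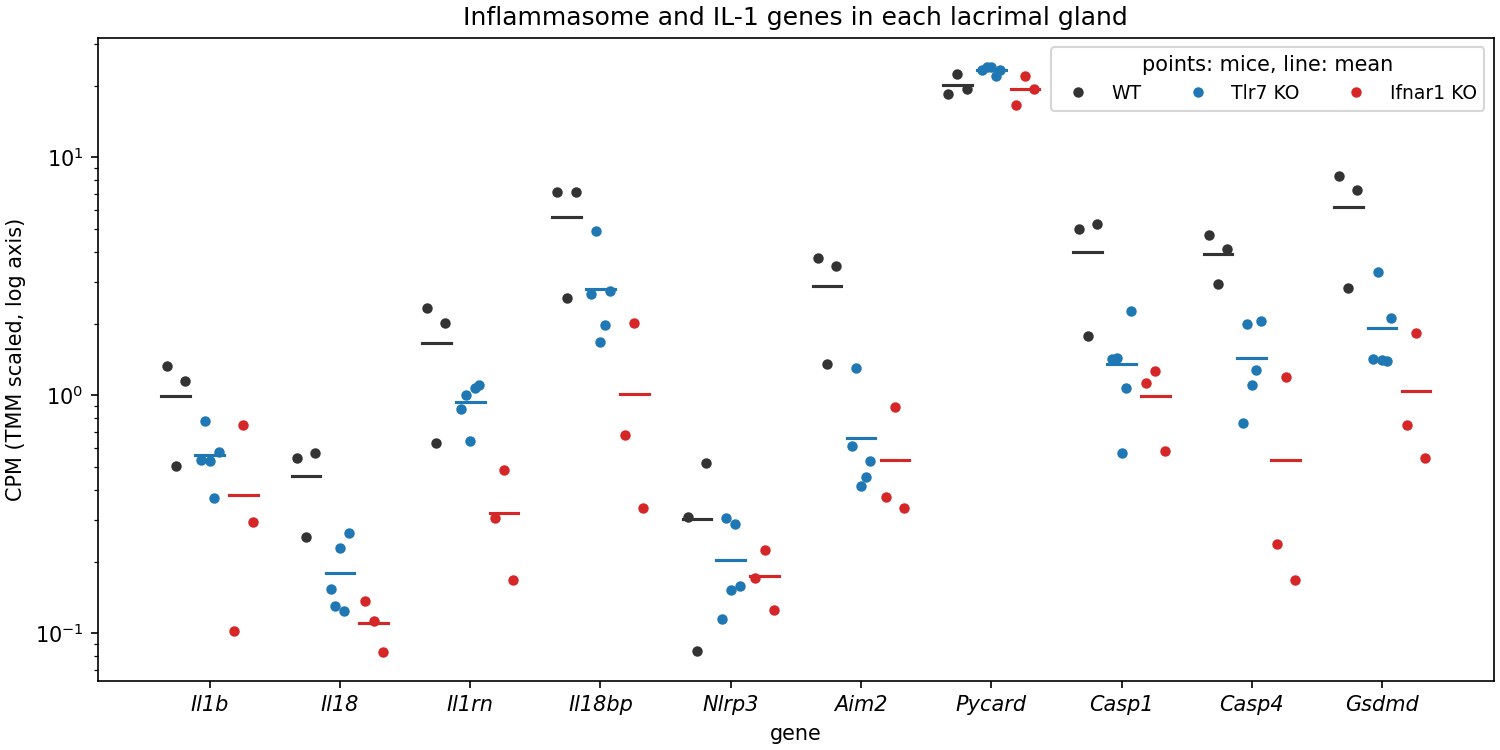
Level of each gene in each mouse, in CPM on a log axis, with points for mice, horizontal lines for group means and colours for WT, *Tlr7* KO and *Ifnar1* KO. *Pycard* sits between 16.6 and 24 CPM in every mouse, while in most other genes 2 of the 3 WT mice lie above all KO mice.

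*Il1b*, the gene of the cytokine IL-1β, lies on chromosome 2 of GRCm38 from 129364570 to 129371139 and was measured at 1.33, 0.506 and 1.15 CPM in WT 1 to 3. The 5 *Tlr7* KO mice had 0.536, 0.782, 0.532, 0.371 and 0.581 CPM. The 3 *Ifnar1* KO mice had 0.102, 0.747 and 0.293 CPM, from 3, 20 and 7 counts. WT 1 and WT 3 were above every KO mouse, and WT 2 lay within the range of both KO groups. The log2 fold change was -0.84 ± 0.36 (SE) for *Tlr7* KO (adjusted p = 0.0985) and -1.42 ± 0.68 for *Ifnar1* KO (adjusted p = 0.171), so neither passed the test. Without WT 2 the change in *Tlr7* KO was -1.15 ± 0.30 and was called (adjusted p = 0.0119), whereas that in *Ifnar1* KO was -1.73 ± 0.65 and was not (adjusted p = 0.0823). The estimate in *Ifnar1* KO was -2.37 without *Ifnar1* KO 2 (adjusted p = 0.0752) and -0.93 without *Ifnar1* KO 1 (adjusted p = 0.34), and that in *Tlr7* KO was -0.59 without WT 1 (adjusted p = 0.337). *Il1bos*, an antisense gene, overlaps *Il1b*, and whether the authors' counting used strand is not stated, so reads of the pair may be mixed.

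*Il18*, the gene of IL-18, lies on chromosome 9 from 50554827 to 50581840. It rested on few counts, with 16, 6 and 21 in the WT mice, 4, 3, 6, 3 and 5 in the *Tlr7* KO mice and 4, 3 and 2 in the *Ifnar1* KO mice. These correspond to 0.547, 0.253 and 0.574 CPM in WT, to 0.124 to 0.264 CPM in *Tlr7* KO and to 0.0837 to 0.136 CPM in *Ifnar1* KO. Every *Ifnar1* KO mouse was below every WT mouse, while *Tlr7* KO 5 was just above WT 2 in CPM. It had 5 counts against 6 in WT 2, and its TMM factor of 0.6875 against 0.8727 put it above. *Il18* was called lower in *Tlr7* KO, with a log2 fold change of -1.37 ± 0.43 (adjusted p = 0.036). In *Ifnar1* KO it was -2.04 ± 0.55 (adjusted p = 0.0427), a call lost with no gene filter (adjusted p = 0.051), with library size only (adjusted p = 0.0758) and with each mouse but WT 2 left out (adjusted p = 0.102 to 0.146). The call in *Tlr7* KO was lost without WT 1, without WT 3, and without any of *Tlr7* KO 1 to 4 in turn, where adjusted p ranged up to 0.142. With DESeq2 the adjusted p was 0.068 and 0.065. *Il18* shares its locus with *Bco2* and *Tex12* on the other strand.

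The antagonist *Il1rn*, on chromosome 2 from 24336853 to 24351494, was at 2.32, 0.633 and 2.02 CPM in the WT mice. The *Tlr7* KO mice had 0.88, 0.9997, 0.646, 1.07 and 1.11 CPM. In *Ifnar1* KO 1 to 3 it was at 0.306, 0.486 and 0.168 CPM. All 3 *Ifnar1* KO mice were below the lowest mouse of each other group, and all 5 *Tlr7* KO mice lay between WT 2 and the other WT mice. In *Ifnar1* KO the log2 fold change of *Il1rn* was -2.39 ± 0.59 and was called (adjusted p = 0.0342). This call was lost with each mouse but WT 2 left out (adjusted p = 0.0518 to 0.114). The log2 fold change of *Il1rn* in *Tlr7* KO was -0.84 ± 0.38 (adjusted p = 0.116), and without WT 2 it was -1.21 ± 0.24 and called (adjusted p = 0.00309).

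*Il18bp*, on chromosome 7 from 102014885 to 102018690, encodes the binding protein of IL-18 and was at 7.18, 2.57 and 7.18 CPM in the WT mice. Its level was 2.68, 4.91, 1.67, 1.98 and 2.75 CPM in the *Tlr7* KO mice. Its level was 0.681, 2.02 and 0.335 CPM in the *Ifnar1* KO mice. The *Ifnar1* KO mice did not overlap the WT mice, while *Tlr7* KO 1, 2 and 5 were above WT 2. Of these, *Tlr7* KO 5 had 52 counts against 61 in WT 2 and was above it only through TMM scaling. In *Ifnar1* KO the log2 fold change of *Il18bp* was -2.51 ± 0.65 (adjusted p = 0.0375), and -3.47 without *Ifnar1* KO 2 (adjusted p = 0.0296). In *Tlr7* KO it was -1.03 ± 0.40 (adjusted p = 0.0726), and it was called with DESeq2 (adjusted p = 0.0447), without WT 2 (adjusted p = 0.00819) and without *Tlr7* KO 2 (adjusted p = 0.0225). The *Il18bp* call in *Ifnar1* KO was kept with WT 2 or with *Ifnar1* KO 2 removed. Removing any other mouse ended it (adjusted p = 0.105 to 0.126). *Numa1* overlaps *Il18bp* on the other strand.

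Of the sensors, *Aim2* (chromosome 1, 173350879 to 173466040), which binds double-stranded DNA in the cytosol, was at 3.79, 1.35 and 3.50 CPM in the WT mice. In *Tlr7* KO 1 to 5 it was at 0.612, 1.30, 0.418, 0.453 and 0.528 CPM. Levels in *Ifnar1* KO 1 to 3 were 0.374, 0.896 and 0.335 CPM. Every KO mouse was below every WT mouse, although *Tlr7* KO 2 came within 0.05 CPM of WT 2. *Aim2* fell 4.37-fold in *Tlr7* KO, with a log2 fold change of -2.13 ± 0.43 (adjusted p = 0.00662). It fell 5.47-fold in *Ifnar1* KO, with -2.45 ± 0.53 (adjusted p = 0.0261). The call in *Tlr7* KO held with each of the 8 mice left out in turn. That in *Ifnar1* KO held when WT 2 or *Ifnar1* KO 2 was dropped. Dropping any other mouse lost it (adjusted p = 0.0796 to 0.0955). Part of *Cadm3* lies on the opposite strand.

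*Nlrp3* (chromosome 11, 59541568 to 59566956), a sensor of membrane damage and potassium efflux, was hardly detected. It had 9, 2 and 19 counts in the WT mice, a sum equal to the filter minimum of 30. The *Tlr7* KO mice had 3 to 7 counts and the *Ifnar1* KO mice 3 to 6. All 3 groups overlapped, and WT 2 was the lowest of all 11 mice. The log2 fold changes of *Nlrp3* were -0.63 ± 0.57 (adjusted p = 0.422) and -0.87 ± 0.69 (adjusted p = 0.393), and a difference was not detectable at this depth. Without WT 3 the estimate in *Tlr7* KO was 0.0052.

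The adaptor *Pycard* (chromosome 7, 127989708 to 127993867) was at 18.5, 22.4 and 19.4 CPM in the WT mice. The *Tlr7* KO mice had 23.2, 23.95, 24, 21.9 and 23.3 CPM. Those of the *Ifnar1* KO group had 16.6, 22 and 19.5 CPM. It was the only member that was highest in WT 2 among the WT mice, and its groups overlapped. The log2 fold change of *Pycard* was 0.21 ± 0.08 for *Tlr7* KO (adjusted p = 0.0659) and -0.07 ± 0.14 for *Ifnar1* KO (adjusted p = 0.733). Scaling by library size only turned the first to -0.27 (adjusted p = 0.263), where the median of all genes moved to -0.54, so that *Pycard* stayed above that median. An overlapping gene, *Gm45205*, lies on the other strand.

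*Casp1* and *Casp4* are neighbours on chromosome 9, from 5298517 to 5307265 and from 5308828 to 5336783, on the plus strand with 1562 bases between them. *Casp1*, the caspase of the canonical inflammasome, was at 5.03, 1.77 and 5.27 CPM in WT and at 1.42, 1.43, 0.57, 1.07 and 2.27 CPM in *Tlr7* KO. The *Ifnar1* KO mice had 1.12, 1.27 and 0.586 CPM. *Tlr7* KO 5 was above WT 2, and otherwise each KO mouse was below each WT mouse. *Casp1* fell 3.04-fold in *Tlr7* KO, with a log2 fold change of -1.60 ± 0.43 (adjusted p = 0.0196), and 4.12-fold in *Ifnar1* KO, with -2.04 ± 0.47 (adjusted p = 0.0295). Without WT 1 or WT 3 the call in *Tlr7* KO was lost (adjusted p = 0.0725 and 0.0837). The call in *Ifnar1* KO was lost with each mouse but WT 2 left out (adjusted p = 0.0531 to 0.102).

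*Casp4* was at 4.72, 2.95 and 4.12 CPM in WT and at 0.765, 1.999, 1.10, 1.28 and 2.06 CPM in *Tlr7* KO. The *Ifnar1* KO mice had 0.238, 1.195 and 0.168 CPM, from 7, 32 and 4 counts. All 8 KO mice were below all 3 WT mice. *Casp4* fell 2.76-fold in *Tlr7* KO, with a log2 fold change of -1.47 ± 0.31 (adjusted p = 0.00787), a call that held with each of the 8 mice left out in turn. It fell 7.45-fold in *Ifnar1* KO, with -2.90 ± 0.64 (adjusted p = 0.0267), and without *Ifnar1* KO 2 the estimate was -4.25 ± 0.40 (adjusted p = 0.0287). Leaving out WT 1, WT 3, *Ifnar1* KO 1 or *Ifnar1* KO 3 ended this call (adjusted p = 0.0772 to 0.0914).

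*Gsdmd*, the pore-forming substrate of both caspases, lies on chromosome 15 from 75862327 to 75867408. It was at 8.38, 2.83 and 7.29 CPM in WT and at 1.42, 3.30, 1.41, 1.40 and 2.11 CPM in *Tlr7* KO. In the *Ifnar1* KO mice it was at 0.749, 1.83 and 0.544 CPM. *Tlr7* KO 2 was above WT 2, and every other KO mouse was below all WT mice. *Gsdmd* fell 3.23-fold in *Tlr7* KO, with a log2 fold change of -1.69 ± 0.38 (adjusted p = 0.0103), and this call held with each of the 8 mice left out in turn. It fell 6.03-fold in *Ifnar1* KO, with -2.59 ± 0.55 (adjusted p = 0.0255). The estimate there was -3.26 without *Ifnar1* KO 2 (adjusted p = 0.0287). Of the 6 fits that each dropped a mouse, 2 kept the *Ifnar1* KO call, those lacking WT 2 or *Ifnar1* KO 2. All other such fits lost it (adjusted p = 0.0756 to 0.0935).

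**Figure D2:**
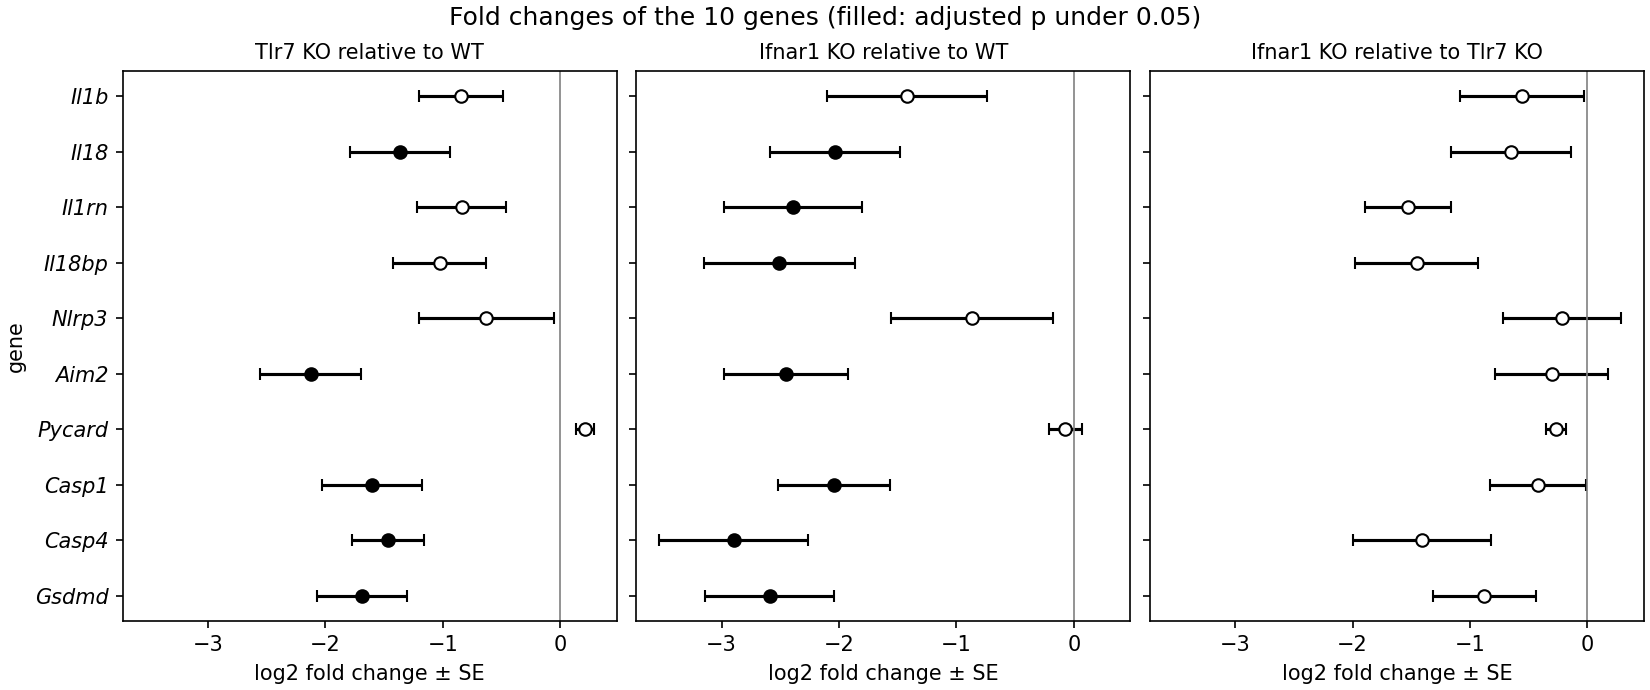
Log2 fold change with SE for each gene in *Tlr7* KO relative to WT, in *Ifnar1* KO relative to WT and in *Ifnar1* KO relative to *Tlr7* KO glands, with filled points for an adjusted p under 0.05. There are 5 filled points in the left panel, 7 in the middle panel and 0 in the right panel.

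Whether the groups overlapped was also counted. In *Tlr7* KO 2 of the 10 genes, *Aim2* and *Casp4*, had every KO mouse below every WT mouse, as did 14.2% of all genes tested. In *Ifnar1* KO there were 7 such genes, against 21.1% of all genes tested. Without WT 2 the number rose to 9 of 10 in either comparison, all but *Pycard*, with 29.6% of all genes for *Tlr7* KO and 32.4% for *Ifnar1* KO. *Pycard* then had every *Tlr7* KO mouse above the remaining WT mice, while its *Ifnar1* KO mice overlapped them. WT 2 was the lowest WT mouse for 9 of the 10 genes. In the *Ifnar1* KO group *Ifnar1* KO 2 was the highest mouse for 9 genes and *Ifnar1* KO 3 the lowest for 8.

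Leaving out single mice moved the calls, of the 10 genes and of all genes. Without WT 2, 8 genes were called lower in *Tlr7* KO, where 24.9% of all genes were, and *Pycard* was called higher at 0.29 ± 0.07 (adjusted p = 0.00618), where 22.9% of all genes were. *Nlrp3* alone was not called there (adjusted p = 0.102). Without WT 1 or without WT 3, 3 genes were called lower in *Tlr7* KO, where 10% and 9.37% of all genes were, and *Aim2*, *Casp4* and *Gsdmd* were those called under each mouse left out. In *Ifnar1* KO 7 genes were called lower without WT 2, against 20.2% of all genes, and 4 without *Ifnar1* KO 2, against 8.26%. When WT 1 or WT 3 was left out, 0 of the 10 genes were called, where 0.0718% and 0.718% of all genes were called lower, and when *Ifnar1* KO 1 or *Ifnar1* KO 3 was left out, 0 of the 10 and 0% of all genes were. All estimates of the 7 genes called in *Ifnar1* KO remained negative with each of the 6 mice left out, between -4.25 and -1.80.

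Scaling by library size only, which moved the median of all genes to -0.54 in *Tlr7* KO, gave 8 genes called lower there, where 30.7% of all genes were. The genes added were *Il1b* at -1.43 (adjusted p = 0.0393), *Il1rn* at -1.46 (adjusted p = 0.0362) and *Il18bp* at -1.64 (adjusted p = 0.0193).

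**Figure D3:**
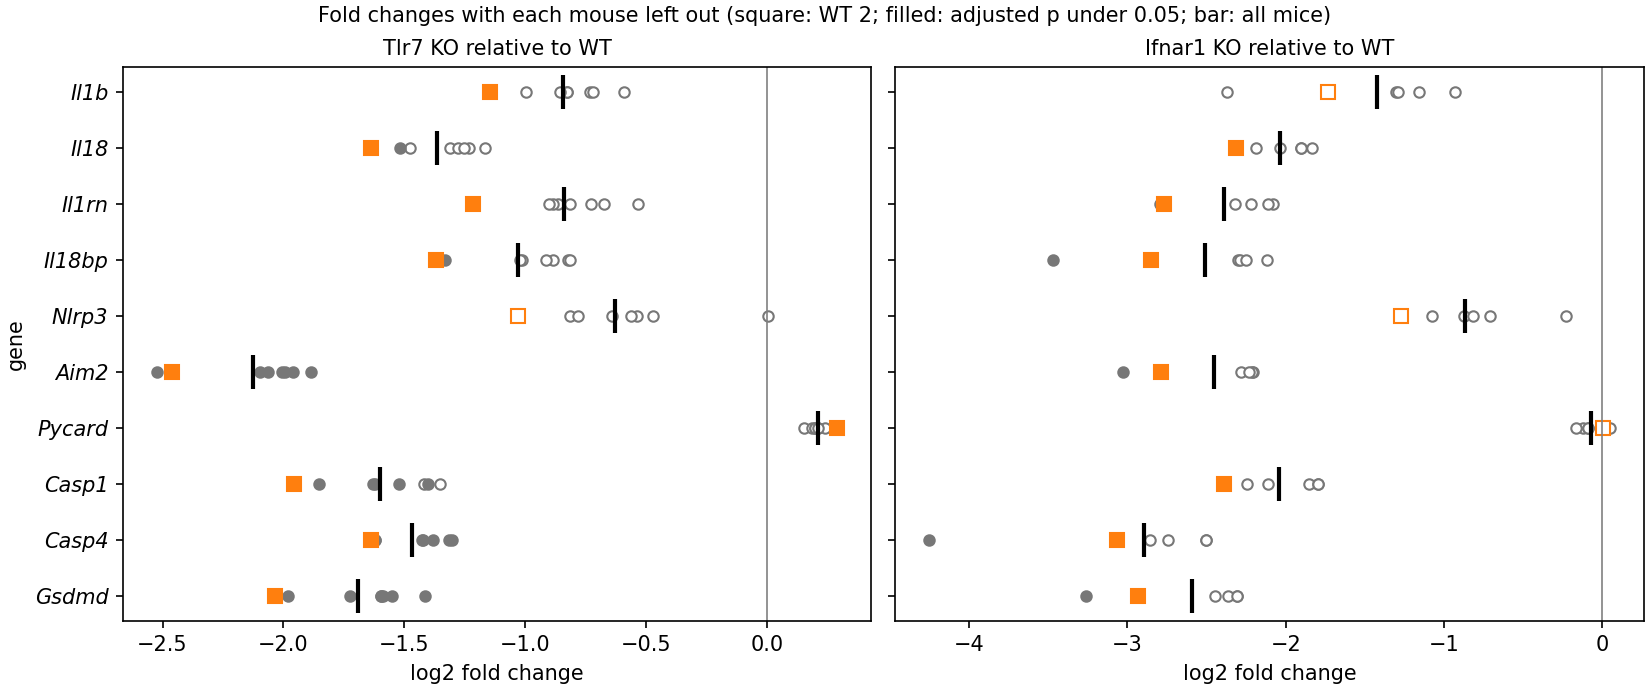
Log2 fold change of each gene relative to WT with each mouse left out in turn, for *Tlr7* KO (left) and *Ifnar1* KO (right), with orange squares for WT 2 left out, filled symbols for an adjusted p under 0.05 and black bars for all mice. In the left panel *Aim2*, *Casp4* and *Gsdmd* are filled throughout, and in the right panel most circles are open.

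In the direct comparison of the KO groups, which asks where loss of the IFN receptor and loss of TLR7 differed, 0 of the 10 genes were called, against 1.79% of the 13935 genes tested. All 10 estimates were lower in *Ifnar1* KO, with a median log2 fold change of -0.60 against -0.0011 over all genes. Since the genes other than *Pycard* varied together across mice, these are not 10 separate observations. An inflamed mouse had been removed from the *Ifnar1* KO group alone, and the part of that in the difference was not tested. Of 10 IFN-stimulated marker genes 9 were called lower in *Ifnar1* KO, with a median of -3.17, and their part was not tested. At an unadjusted p under 0.05 there were 4 of the 10 members, *Il1rn*, *Il18bp*, *Casp4* and *Pycard*, against 16.3% of all genes. The largest difference was that of *Il1rn*, -1.53 ± 0.37 (adjusted p = 0.0708), whose groups did not overlap, as was the case with lower values in *Ifnar1* KO for 5.47% of all genes. DESeq2 called 1 gene, *Il1rn* (adjusted p = 0.0261), against 4.14% of all genes.

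The other differences between the KO groups were smaller or less certain. *Il18bp* differed by -1.45 ± 0.53 (adjusted p = 0.21), *Casp4* by -1.41 ± 0.59 (adjusted p = 0.277) and *Gsdmd* by -0.88 ± 0.44 (adjusted p = 0.352). *Pycard* differed by -0.27 ± 0.09 (adjusted p = 0.167). Without *Ifnar1* KO 2, 4 genes were called lower in *Ifnar1* KO, against 6.29% of all genes in either direction. These were *Il1rn* at -1.94, *Il18bp* at -2.43, *Casp4* at -2.77 and *Pycard* at -0.37, with adjusted p of 0.0227, 0.0215, 0.0152 and 0.029. For *Aim2* (-0.30 ± 0.48) and *Casp1* (-0.42 ± 0.41) the difference was within its SE or close to it, which does not show that the groups were alike.

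Levels of different genes were compared per kilobase of merged exons. In WT glands *Pycard* was highest at 5.29 ± 0.537 CPM per kilobase (SD, n = 3), followed by *Casp1* at 2.69 ± 1.31, *Gsdmd* at 2.59 ± 1.24 and *Il18bp* at 1.87 ± 0.879. *Casp4* had 1.06, *Aim2* 0.823, *Il1b* 0.522, *Il18* 0.444, *Il1rn* 0.3 and *Nlrp3* 0.0748 CPM per kilobase. Neighbours in this order differed by less than the larger of their SDs, except *Pycard* from *Casp1* and *Il1rn* from *Nlrp3*. In *Tlr7* KO glands *Pycard* was at 6.12 CPM per kilobase and *Il18bp* came next at 0.924, with *Casp1* at 0.903. In *Ifnar1* KO glands *Pycard* was at 5.10 and *Casp1* came next at 0.663 CPM per kilobase. The adaptor was thus the most abundant of the 10 transcripts per length in each group, and *Nlrp3* the least.

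The balance of each cytokine and its antagonist was compared as the log2 ratio of their counts in each mouse, in which library scaling cancels. The ratio of *Il1b* to *Il1rn* was -0.79, -0.31 and -0.81 in WT 1 to 3 and -0.70, -0.35, -0.27, -1.48 and -0.90 in the *Tlr7* KO mice. In the *Ifnar1* KO mice it was -1.44, 0.60 and 0.74. Thus *Ifnar1* KO 2 and 3 were above every other mouse, and *Ifnar1* KO 1 was close to the lowest, *Tlr7* KO 4. The mean differed from WT by -0.10 in *Tlr7* KO (exact permutation test, two-sided, p = 0.804) and by 0.60 in *Ifnar1* KO (exact p = 0.4). The latter was 1.31 without *Ifnar1* KO 1, 0.29 without *Ifnar1* KO 2, 0.22 without *Ifnar1* KO 3 and 0.30 in the second count table. *Ifnar1* KO differed from *Tlr7* KO by 0.71 (exact p = 0.232).

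The ratio of *Il18* to *Il18bp* was -3.67, -3.24 and -3.62 in the WT mice and -3.97, -5.02, -2.78, -3.79 and -3.25 in the *Tlr7* KO mice. Values of -2.19, -3.96 and -1.77 were found in the *Ifnar1* KO mice. The groups overlapped, with *Ifnar1* KO 1 and 3 above every other mouse. The mean differed from WT by -0.25 in *Tlr7* KO (exact permutation p = 0.643) and by 0.87 in *Ifnar1* KO (exact p = 0.4), and between the KO groups by 1.12 (exact p = 0.179). In the second count table the difference in *Tlr7* KO turned to 0.32 and that between the KO groups was 0.33, and without *Tlr7* KO 2 the former was 0.0622. *Il18* had only 2 to 4 counts in the *Ifnar1* KO mice. The difference of *Ifnar1* KO from WT was 1.53 without *Ifnar1* KO 2 and 0.44 without *Ifnar1* KO 3. Over the 6 ratio tests the adjusted p was 0.6 or higher. The smallest p that these tests can give is 0.0179 for 3 against 5 mice and 0.1 for 3 against 3, so the comparison of WT with *Ifnar1* KO could not pass the threshold.

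**Figure D4:**
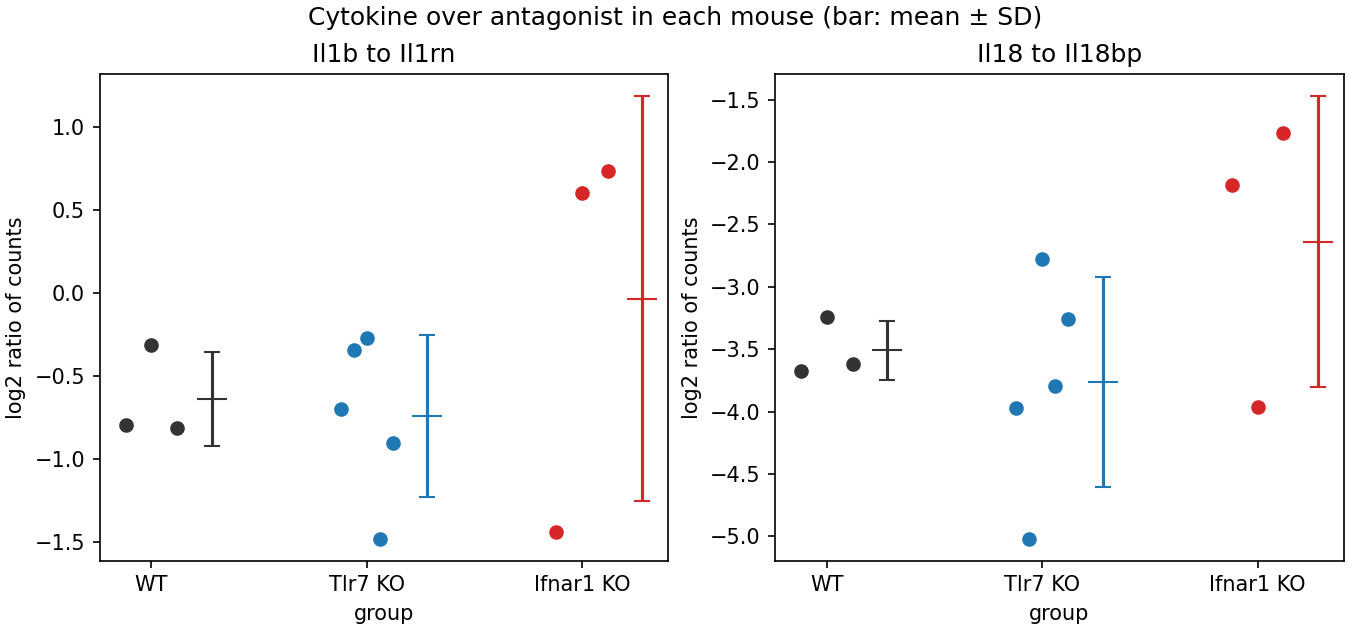
Log2 ratio of counts of *Il1b* to *Il1rn* (left) and of *Il18* to *Il18bp* (right) for each mouse, with mean and SD beside the points of each group. The *Ifnar1* KO mice run from -1.44 to 0.74 in the left panel and from -3.96 to -1.77 in the right panel, where the *Tlr7* KO mice run from -5.02 to -2.78.

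Beyond the 10 genes, 57 other genes of the pathway were listed, also with earlier results known, and 44 of them could be tested. In *Tlr7* KO 15 of them were called lower and 6 higher, against 17.4% and 15.3% of all genes, with a median log2 fold change of -0.50. Scaling by library size only called 22 lower and 0 higher, against 30.7% and 0.875% of all genes. Of 10 other sensors 5 were called lower and 1 higher, and of 11 activators and regulators 6 were called lower and 0 higher. Of 8 receptors of the IL-1 family 0 were called lower and 2 higher. In *Ifnar1* KO 12 of the 44 genes were called lower and 2 higher, against 12.4% and 6.76% of all genes, with a median of -0.69. Library size only called 9 lower and 0 higher there, against 9.25% and 0.366%. Those called lower there included 2 of the sensors, 6 of the activators and regulators and 1 of the receptors. Between the KO groups 0 of the 44 were called by edgeR, 8 had an unadjusted p under 0.05, and DESeq2 called 2, against 1.79%, 16.3% and 4.14% of all genes.

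The pathway genes with the smallest adjusted p in *Tlr7* KO were named in each direction. *Serpinb1a*, an inhibitor of neutrophil proteases and inflammatory caspases, was at 10.3 ± 3.49 CPM in the 3 WT mice and fell to 1.39 ± 0.691 CPM in the 5 *Tlr7* KO mice (mean ± SD), a log2 fold change of -2.90 (adjusted p = 0.00108, edgeR). *Pstpip1*, which encodes a cytoskeletal protein that binds pyrin, fell by 2.11 (adjusted p = 0.0051), and *Txnip*, a thioredoxin inhibitor that can bind NLRP3, fell by 1.45 (adjusted p = 0.00598). *Hmgb1*, a nuclear protein released from dying cells, fell by 0.34 (adjusted p = 0.0111). The receptor for IL-36, *Il1rl2*, rose by 0.93 (adjusted p = 0.00104) and the shared accessory chain *Il1rap* by 0.67 (adjusted p = 0.00851). *Nlrx1*, a mitochondrial NLR protein, rose by 0.63 (adjusted p = 0.00958). *Ninj1*, which ruptures the membrane of dying cells, rose by 0.40 (adjusted p = 0.00837). Scaling by library size only gave estimates of -0.84 for *Hmgb1*, 0.43 for *Il1rl2*, 0.21 for *Il1rap* and 0.09 for *Nlrx1*, and turned that of *Ninj1* to -0.08.

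In *Ifnar1* KO *Serpinb1a* fell to 0.971 ± 0.0845 CPM (SD, n = 3), a log2 fold change of -3.42 (adjusted p = 0.019, edgeR). *Tnfaip3*, a brake on NF-κB, fell by 1.61 (adjusted p = 0.023), *Il33*, an alarmin of the IL-1 family, by 1.36 (adjusted p = 0.0255) and *Hmgb1* by 0.46 (adjusted p = 0.0249). *Il1rl2* rose by 0.91 (adjusted p = 0.0207), and its groups did not overlap in either comparison. *Tollip*, an adaptor that restrains IL-1 receptor signalling, rose by 0.54 (adjusted p = 0.0346). Library size only gave -0.75 for *Hmgb1* and 0.28 for *Tollip*. Without WT 1 or WT 3, 9 pathway genes were called in *Tlr7* KO, where 19.5% and 18.7% of all genes were called in either direction, and 1 in *Ifnar1* KO, where 0.0933% and 0.868% were. Without *Tlr7* KO 3 and *Tlr7* KO 4, 13 and 12 were called in *Tlr7* KO, with 23.6% and 25.4% of all genes. Without WT 2, 26 were called in *Ifnar1* KO, with 33.5% of all genes. Without *Ifnar1* KO 2, 8 were called in *Ifnar1* KO, with 11.4% of all genes, and 4 between the KO groups, with 6.29%. Without *Ifnar1* KO 1 or *Ifnar1* KO 3, 0 were called in *Ifnar1* KO, nor was any other gene.

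Markers of other cell types were measured beside the 10 genes, and their calls are to be read against the 17.4% of all genes called lower and 15.3% called higher in *Tlr7* KO, and the 12.4% and 6.76% in *Ifnar1* KO. Summed levels of 8 B cell markers were 80.4 to 280.1 CPM in WT, 6.42 to 50.4 CPM in *Tlr7* KO and 2.55 to 20.2 CPM in *Ifnar1* KO, with all 8 called lower in both. The 8 T cell markers summed to 24.5 to 74.2, 6.0 to 29.9 and 1.42 to 14.3 CPM, with 6 and 7 called lower. Dendritic cell markers summed to 6.33 to 23.6, 5.09 to 10.3 and 3.52 to 7.58 CPM, with 3 and 2 of 8 called lower, and *Clec9a* had at most 3 counts in each *Ifnar1* KO mouse. Their part in the results was not tested.

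Macrophage and monocyte markers, from cells in which inflammasomes are best known, summed to 196.6 to 361 CPM in WT and to 179 to 209.4 CPM in *Tlr7* KO. In *Ifnar1* KO they summed to 67.3 to 164.1 CPM, below the other groups. Most of these sums was *Lyz2*, with means of 198.9, 133.9 and 65.9 CPM in WT, *Tlr7* KO and *Ifnar1* KO. *Cd68*, *Itgam*, *Mrc1*, *Cd163* and *Ccr2* overlapped between WT and *Ifnar1* KO. Of the 12 markers 3 were called lower and 1 higher in *Tlr7* KO, and 5 lower and 1 higher in *Ifnar1* KO. The IFN-stimulated genes summed to 74.3 to 260.9 CPM in WT, 63.7 to 190.9 CPM in *Tlr7* KO and 10 to 38.8 CPM in *Ifnar1* KO, with 1 and 10 of 10 called lower. Between the KO groups 9 of these 10 genes were called lower in *Ifnar1* KO, where 0.926% of all genes were. Of the 12 macrophage and monocyte markers 2, *Cx3cr1* and *Ccr2*, were called lower there (adjusted p = 0.0235 and 0.0258, edgeR). In each other marker list 0 were called between the KO groups. Gland epithelial markers summed to 546.3 to 686.9, 716.5 to 813 and 732.4 to 762.3 CPM. Of these 8 markers *Krt19* and *Slc12a2* were called lower in both KO groups, and *Krt8* and *Aqp5* were called higher in *Tlr7* KO, where scaling by library size only turned their estimates to -0.04 and -0.11. Of 10 neutrophil markers the main table holds 5, with sums of 0.886 to 4.72 CPM in WT, 1.19 to 2.38 CPM in *Tlr7* KO and 0.795 to 2.13 CPM in *Ifnar1* KO. Of these 5, *Csf3r* had 15 to 106 counts in WT, 20 to 35 in *Tlr7* KO and 8 to 22 in *Ifnar1* KO mice, while *Cxcr2* had 1 to 12, 2 to 11 and 10 to 21. *S100a8*, *S100a9* and *Mmp9* had at most 16 counts in any mouse. The other 5, *Ly6g*, *Retnlg*, *Mmp8*, *Ngp* and *Camp*, were looked up in the second count table, where they had at most 4 counts in any mouse, and *Ly6g* and *Retnlg* at most 1. *Csf3r* and *S100a9*, which alone passed the gene filter, had adjusted p of 0.235 and 0.632 in *Tlr7* KO and of 0.074 and 0.38 in *Ifnar1* KO (edgeR). The part of these cells and of IFN-stimulated transcription in the results was not tested.

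**Figure D5:**
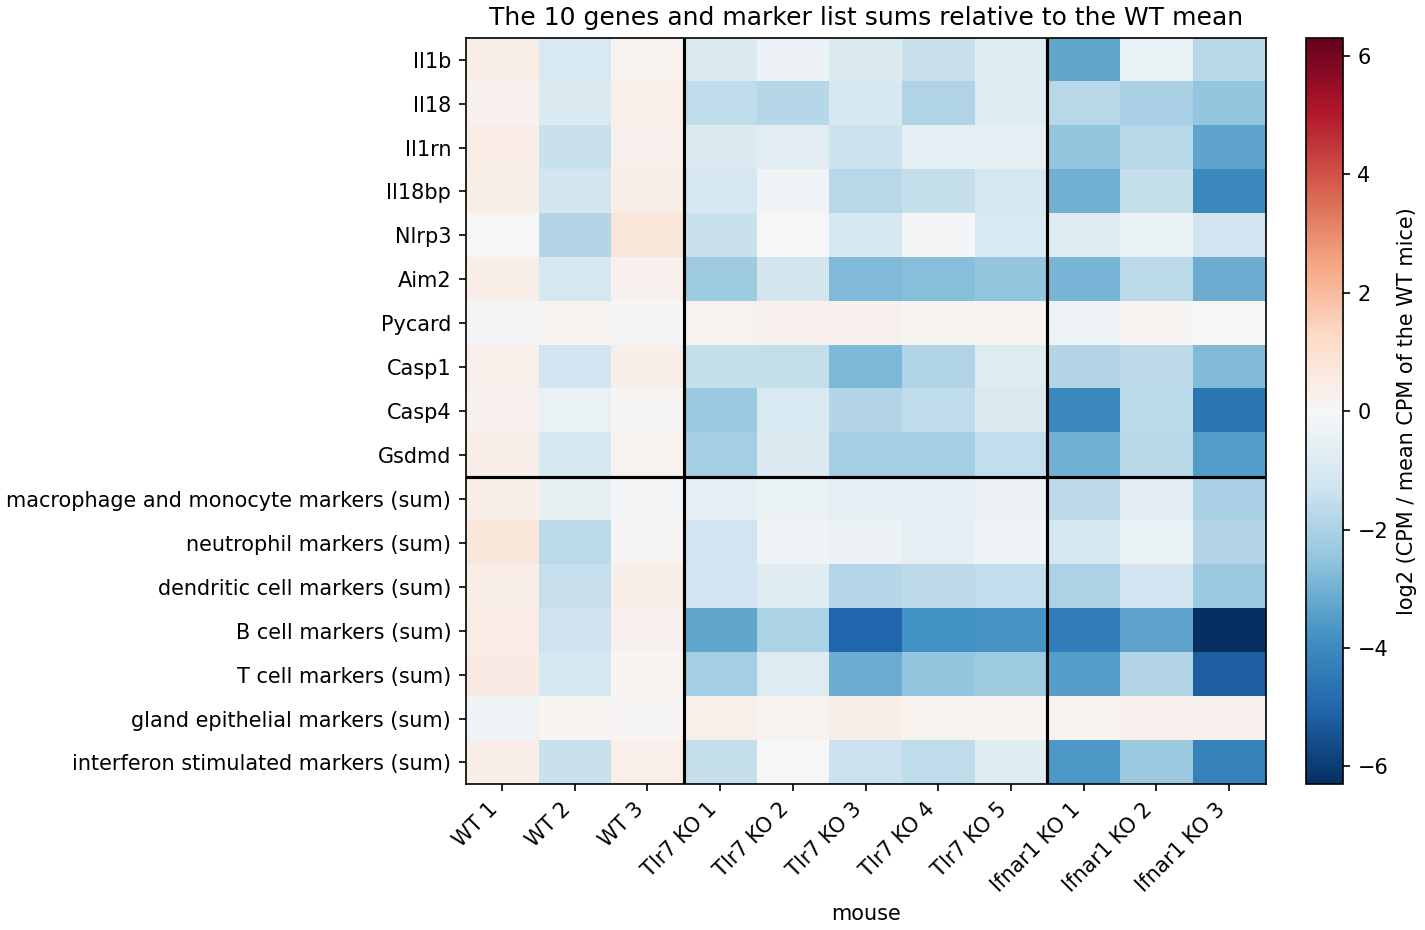
Level of each of the 10 genes and summed level of each marker list in each mouse, as log2 of the ratio to the mean of the WT mice (blue lower, red higher). WT 2 is blue in all genes but *Pycard*, most deeply in *Nlrp3*, the KO columns are blue for most genes and for B and T cell markers, and *Pycard* and the epithelial markers stay near white.

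Across the 11 mice the genes other than *Pycard* varied together, as a description. The 36 pairs among these 9 genes had Pearson's r of log2 CPM between 0.458 and 0.954, with a median of 0.811, whereas the 9 pairs with *Pycard* had a median of 0.019. For 4 members the genes with the most similar profile over the 11 mice were listed among the genes tested. *Aim2* was most like *Traf3ip3* (r = 0.994), *Cyfip2* (r = 0.992) and *Siglecg* (r = 0.99), and within groups these were 0.986, 0.981 and 0.97. *Casp1* was most like *Fcgrt* (r = 0.975), *Gm22707* (r = 0.969) and *Col6a4* (r = 0.968), with 0.938, 0.941 and 0.936 within groups. *Il1b* was most like *Ly6c2* (r = 0.958), *Rbl1* (r = 0.945) and *Tmsb4x* (r = 0.941), with 0.929, 0.927 and 0.942 within groups. *Il18* was most like *Slc16a9* (r = 0.956), *Aldh3a1* (r = 0.956) and *Snx5* (r = 0.952), with 0.924, 0.812 and 0.813 within groups. The mice share group, library and cell content within each point, and the likeness of these profiles says nothing of shared function.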

How the data were processed

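The libraries analysed came from male NOD mice (3 WT, 5 *Tlr7* KO and 3 *Ifnar1* KO), each made from whole-gland lacrimal RNA of 1 mouse. A further *Ifnar1* KO mouse had been left out by the authors, because it grouped with WT mice by principal components and by focus score, the histological measure of inflammation. The authors quantified reads against the mouse transcriptome using salmon, and gene totals were made using tximport. The deposited table of these estimated counts is rounded to whole numbers. Its name calls it normalized, but its columns keep each library's depth, so it was treated as unnormalized. A further deposited table of counts came from HISAT2 2.1.0 alignments by the authors, with a read counter not given in the sources used here. It served as an alternative, and 1 column of it with no sample was not used. Totals were 20512315 to 28814250 estimated counts per library in the main table and 12233586 to 16621073 counts in the second. The floor is 3 counts and covers counting error only.

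R 4.3.3 with edgeR 4.0.16 (TMM, quasi-likelihood test) was used in separate fits of each pair of groups, keeping genes whose counts in the WT mice summed to 30 or more, and DESeq2 1.42.0 as an alternative. Adjusted p values are Benjamini-Hochberg over all genes tested, tests are two-sided, and the scripts were tested on simulated data. Simulated 2-fold changes were recovered in 56% of genes for WT and *Tlr7* KO, 29% for WT and *Ifnar1* KO and 68% between the KO groups. For 4-fold changes these were 92%, 79% and 94%. The changed genes had more counts than *Il18* and *Nlrp3*, so recovery at such low counts was not measured. Ratios used log2 of (count + 0.5) and exact permutation tests over mice. Annotation is GENCODE M21 on GRCm38. Mice are separate animals of an inbred strain. Named pathway genes are the 4 called with the smallest adjusted p per comparison and direction, and like genes are the 3 with the highest r of log2 CPM (prior count 2). The members, lists and rules were chosen with earlier results of these data known, and the lists were written from general knowledge. Alternatives were DESeq2, RLE factors, no gene filter, the filterByExpr rule, scaling by library size only, 30 counts for each possible WT pair, a joint fit of the 11 mice, the second table, an adjusted p under 0.01, a pseudocount of 2 for ratios, each mouse left out and replicate number as a block.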

Additional observations from a re-analysis of the deposited data

Results flagged for a closer look

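*Aim2* in the *Tlr7* KO group was the only value for which 1 mouse lay far from the rest, among 12 sets of 5 mice examined. *Tlr7* KO 2 had 1.30 CPM and the other *Tlr7* KO mice 0.418 to 0.612 CPM, so that the gap to the nearest mouse made up 0.781 of the whole range. Chance alone sets such a mark on about 1 in 20 sets. Summed B cell markers were 50.4 CPM in *Tlr7* KO 2, against 6.42 to 20.7 CPM in the other *Tlr7* KO mice. T cell markers were 29.9 CPM against 6.0 to 11.7 CPM, and IFN-stimulated genes 190.9 CPM against 63.7 to 115.2 CPM. Their part in the *Aim2* value was not tested. Without *Tlr7* KO 2 the log2 fold change of *Aim2* relative to WT was -2.52, against -2.13 with all mice, and *Aim2* was called either way.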

How the results depend on the processing

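Of the 10 genes, 5 were called in *Tlr7* KO. The number was 2 at an adjusted p under 0.01, 8 with scaling by library size only and 3 to 9 with each mouse left out. In *Ifnar1* KO 7 were called, 0 at an adjusted p under 0.01 and 0 to 7 with each mouse left out. Between the KO groups 0 were called, 1 with DESeq2 and 0 to 4 with each mouse left out. The 44 pathway genes gave 21 calls in *Tlr7* KO, with 7 when an adjusted p under 0.01 was asked for and 9 to 27 with each mouse left out. They gave 14 in *Ifnar1* KO, 9 with library size only, 25 with all 11 mice in 1 fit, 0 at an adjusted p under 0.01 and 0 to 26 with each mouse left out, and 0 between the KO groups, 2 with DESeq2 and 0 to 4 with each mouse left out. The cause was not tested. Apart from a replicate block, the remaining alternatives kept each total within 1.5 times the main one. By direction, library size only took the pathway genes called in *Tlr7* KO from 15 lower and 6 higher to 22 and 0, and in *Ifnar1* KO from 12 and 2 to 9 and 0.

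Replicate numbers are shared between groups. Same-numbered mice did not deviate together between WT and *Tlr7* KO (r = -0.40 to 0.03) or WT and *Ifnar1* KO (-0.44 to -0.158). Between the KO groups r was 0.064, 0.34 and 0.26, so 2 of the 3 pairs deviated together. Since nothing in the labels ties the numbers to a litter or day and r was not above 0.1 for every pair, the samples were treated as sharing only a number. With the replicate number as a block, 0 members and 0 pathway genes were called in *Tlr7* KO and in *Ifnar1* KO, and 1 member (*Il18bp*, adjusted p = 0.0103) and 5 pathway genes between the KO groups. Over all genes this block left 14 calls of 4566 and 0 of 2677, and gave 502 against 250 between the KO groups, so the zeros say nothing about the members. No member's estimate changed sign with this block.

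Estimates that changed sign were those of *Pycard* in *Tlr7* KO with library size only (-0.27), where the median of all genes moved from -0.04 to -0.54, and, with single mice left out, of *Nlrp3* in *Tlr7* KO (-1.03 to 0.0052), *Pycard* in *Ifnar1* KO (-0.16 to 0.046) and *Aim2* between the KO groups (-0.89 to 0.0915). With library size only, the share of lower calls among all called genes went from 53.2% to 97.2% in *Tlr7* KO, from 64.8% to 96.2% in *Ifnar1* KO and from 51.6% to 30.6% between the KO groups. The ratio of *Il1b* to *Il1rn* in *Tlr7* KO ranged from -0.22 to 0.0842 with each mouse left out (0.0629 without WT 2), and that of *Il18* to *Il18bp* from -0.50 to 0.0622, and was 0.32 in the second table. A pseudocount of 2 gave -0.06 and -0.03. In *Ifnar1* KO relative to WT the ratios ranged from 0.22 to 1.31 and from 0.44 to 1.53, and were 0.30 and 0.65 in the second table. Between the KO groups they were 0.37 and 0.33 in that table. With single mice left out these ratios ranged from 0.32 to 1.41 and from 0.69 to 1.79, and were highest without *Ifnar1* KO 1 and without *Ifnar1* KO 2, where the exact permutation p of 0.0476 is the smallest that 2 against 5 mice can give and is not adjusted. *Il18* and *Nlrp3* gave no fold change under filterByExpr, the filter on every pair of WT mice or the second table, since too few counts remained. Depth limits *Nlrp3* and *Il18*, with 30 and 43 counts over the WT mice.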
